A study of Mus musculus with 9 samples.

Results

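The 9 repolarizing potassium channel genes described in mouse heart after ischemia and reperfusion were Kcnj2, Kcnj3, Kcnj11, Kcnd2, Kcnd3, Kcnip2, Kcna5, Kcnq1 and Kcnh2. They were chosen by symbol, with earlier results of these data known, and 9 of 9 were found among the 54532 gene identifiers of the count table. In a ventricular myocyte, potassium leaving the cell through several kinds of channel ends the action potential and holds the resting potential. Fast transient outward current in mouse heart passes through channels of the Kcnd2 and Kcnd3 subunits, which need the calcium-binding partner encoded by Kcnip2. The mouse ventricle relies on these fast currents more than the human ventricle does, and loss of transient outward and inward rectifier current is a known feature of electrical remodelling in diseased heart.

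The animals were male mice of the C57BL/6J strain, wild type and 8 to 10 weeks old, with 3 in each of 3 groups. MIRI mice had the left anterior descending coronary artery tied for 30 min and then reperfused for 24 h, and were given saline. GXNI mice had the same operation and received Guanxinning injection, a Chinese herbal preparation, at 9 mL/kg into the tail vein. Sham mice had the chest opened and the thread passed under the artery but not tied, so that their hearts were not ischemic. By the paper, all groups received drug or saline into the tail vein, within 10 min of ischemia. Total RNA of heart tissue was sequenced, and the part of the heart taken is not given in the sources used here. The labels name cardiomyocytes as the cell type, yet all 6 endothelial, all 7 fibroblast and all 8 macrophage markers examined were counted in every library, so the values describe whole tissue. In such tissue, fewer cells of a type and less RNA per cell cannot be told apart.

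The genes lie apart in the genome (GRCm38, GENCODE M21 annotation). Kcnip2 lies on the reverse strand at chr19:45791839-45816061, Kcnd2 on the forward strand at chr6:21215503-21729805 and Kcnd3 on the forward strand at chr3:105452330-105674002. Kcnj2 is at chr11:111066164-111076821 and Kcnj3 at chr2:55435970-55598145, both on the forward strand, and Kcnj11 is at chr7:46093953-46100764 on the reverse strand. Kcnh2 is at chr5:24319589-24351604 on the reverse strand and Kcnq1 at chr7:143106362-143427042 on the forward strand. Kcna5 has 1 exon, at chr6:126532551-126535412 on the reverse strand. The values are reads counted over the exons of each gene. The antisense gene Gm26794 covers 31.08% of the exon bases of Kcnj3 and had between 0 and 12 counts in a library, against 103 to 1074 for Kcnj3. Kcnd3os covers 1.72% of the exon bases of Kcnd3, and Kcnq1ot1, the long antisense RNA of the imprinted Kcnq1 region, covers 2.96% of those of Kcnq1. Whether the counting used strand is not given, so reads in these stretches cannot be assigned to either gene with certainty.

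The 250 bases before the start of 3 genes are shown, from RefSeq on GRCm38.p6 and read 5′ to 3′ along the gene's strand. Kcnip2 and Kcnj2 are the genes that were lower in every heart with ischemia and reperfusion, and Kcnj3 is a gene whose level split those hearts. Capitals mark the letters of a GC box (GGGCGG), an E box (CACGTG) or a CCAAT box (CCAAT), on either strand, so that CCAAT read from the other strand appears as ATTGG. The windows are chr19:45816064-45816313 for Kcnip2, chr11:111065914-111066163 for Kcnj2 and chr2:55435720-55435969 for Kcnj3.
Kcnip2: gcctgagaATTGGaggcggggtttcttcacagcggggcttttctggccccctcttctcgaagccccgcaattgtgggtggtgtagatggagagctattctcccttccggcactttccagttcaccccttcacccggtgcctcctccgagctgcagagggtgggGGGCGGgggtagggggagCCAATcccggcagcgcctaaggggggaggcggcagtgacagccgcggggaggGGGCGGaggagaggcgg
Kcnj2: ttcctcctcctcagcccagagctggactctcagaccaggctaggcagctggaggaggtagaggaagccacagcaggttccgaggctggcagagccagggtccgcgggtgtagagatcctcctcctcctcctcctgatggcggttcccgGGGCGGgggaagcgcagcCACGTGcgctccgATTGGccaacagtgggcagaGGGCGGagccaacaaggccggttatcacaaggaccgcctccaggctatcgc
Kcnj3: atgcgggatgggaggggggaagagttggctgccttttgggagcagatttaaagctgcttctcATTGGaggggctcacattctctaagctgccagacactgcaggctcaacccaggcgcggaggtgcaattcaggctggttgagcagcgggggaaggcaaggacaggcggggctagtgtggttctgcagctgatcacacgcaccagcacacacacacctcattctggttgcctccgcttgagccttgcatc
Kcnip2 had 2 GC boxes and 2 CCAAT boxes, Kcnj2 had 2 GC boxes, 1 E box and 1 CCAAT box, and Kcnj3 had 1 CCAAT box. GC, or guanine and cytosine, made up 66.8%, 65.6% and 58.4% of these windows. Such letters are common: among 32851 promoter windows of the same length, 32.7% held GGGCGG, 33.8% held CCAAT and 6.02% held CACGTG. Of the 7 members with an entry, 4 held a GC box, 3 a CCAAT box and 1 the E box. The Kcnh2 window, at chr5:24329592-24329841, lies inside the annotated gene and so precedes an internal start. For Kcnd2, Kcnd3 and Kcna5 the bases just after the start were not found in a GENCODE M21 transcript of the gene. A TATA box (TATAAA) was in 0 of the 7 windows and in 12.4% of all windows. A GATA site, searched as AGATAA on both strands, was in 0 of 7 and in 9.99%. The letters TGACG, the core of a CREB site, were in 0 of 7 and in 17.8%. There was no entry for Kcnj11 or Kcnq1. A match describes letters in a window and not a bound site.

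The libraries held between 17119454 and 22811295 counts, and a count of 3 amounts to 0.132 to 0.175 CPM. CPM stands for counts divided by the TMM-scaled size of the library. Of the 6 libraries with ischemia and reperfusion, each had as its nearest library, by rank correlation over 15207 genes, one with another label. On the first principal component, which held 64.8% of the variance, the libraries labelled MIRI 2 (-43.9) and GXNI 1 (-43.6) lay near the sham libraries (-60.1 to -52.2). GXNI 3 lay at the other end (93.9), beyond MIRI 3 (83.6) and MIRI 1 (61.6), with GXNI 2 between (18.6). The fold changes listed in supplementary tables of the study are returned from these counts by DESeq2 once the libraries labelled MIRI 2 and GXNI 3 are exchanged, and not under the deposited labels. Which assignment is right was not settled here. Each comparison that depends on it is therefore given by deposited label, then without both libraries, then with both exchanged. A comparison of all 6 MIRI and GXNI libraries with the 3 sham libraries contains the same libraries either way and is given first.

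Between genes, levels can be compared only per length, here as CPM per kb of annotated exon. In sham hearts, Kcnip2 had the highest level (45.9 ± 3.09 CPM per kb, SD, n = 3). Kcnj11 followed at 37.4 ± 1.27 and Kcnh2 at 23.4 ± 2.69, and these levels did not overlap. Kcnq1 (11.2 ± 1.42), Kcna5 (10.9 ± 4.11), Kcnj2 (10.5 ± 1.22) and Kcnj3 (8.71 ± 0.457) came next, and each overlapped its neighbour in the order. Kcnd2 was at 4.92 ± 0.74 and Kcnd3 at 1.37 ± 0.147 CPM per kb, each separate from the gene above it. In MIRI hearts Kcnj11 came first at 24.8 ± 15.1 CPM per kb, separate from Kcna5 at 12.7 ± 0.557, while Kcnip2 came after Kcna5 and Kcnh2 at 12.2 ± 6.75. Every lower neighbour in the MIRI order overlapped the next, down to Kcnd3 at 1.36 ± 0.48. In GXNI hearts Kcnj11 was again first at 22.3 ± 8.07 CPM per kb, followed by Kcnip2 at 14.2 ± 6.59 and Kcna5 at 13.8 ± 0.602, and all neighbours overlapped. Kcnip2 therefore held the first place in sham hearts alone, by deposited label.

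**Figure D1:**
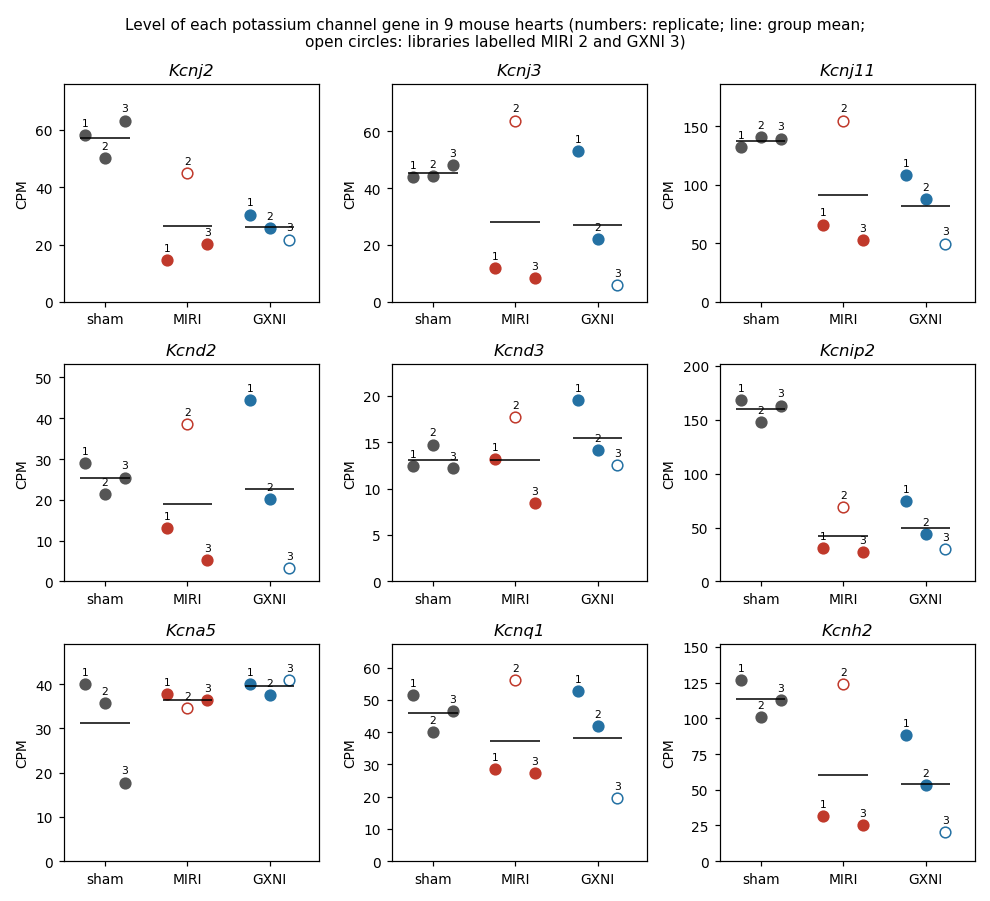
Level of each of the 9 genes in CPM (vertical axis, from 0) in each of the 9 hearts, by deposited label. Numbers are replicates, lines are group means and open circles are the libraries labelled MIRI 2 and GXNI 3. Kcnip2 and Kcnj2 lie below every sham heart in all 6 MIRI and GXNI hearts, while Kcna5 stays between 34.7 and 41.0 CPM in them.

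Kcnip2 was lower in every heart with ischemia and reperfusion than in any sham heart. Its level was 168, 147 and 163 CPM in sham 1 to 3, 30.7, 69.3 and 26.9 CPM in MIRI 1 to 3, and 74.8, 43.7 and 30.1 CPM in GXNI 1 to 3. The mean was 159 ± 10.7 CPM (SD, n = 3) in sham hearts and 45.9 ± 21.1 CPM (SD, n = 6) in the others, and the groups did not overlap. That was so downward for 8.44% of the genes tested. Kcnip2 encodes KChIP2, the calcium-binding subunit that brings Kcnd channels to the membrane and sets their gating. Over the 6 libraries the log2 fold change against sham was -1.80 (SE 0.325, unadjusted p = 0.00026, adjusted p = 0.0573, edgeR's quasi-likelihood test). A gene was called where the fold change reached 1.5 and the unadjusted p was 0.01 or lower. By that rule 2 of the 9 genes were called lower and 0 higher, Kcnip2 and Kcnj2, where 2.85% of the 15207 genes tested were called lower and 5.52% higher.

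The pore-forming partners of KChIP2 did not share this pattern. Kcnd2, the Kv4.2 subunit of fast transient outward current, was at 29.1, 21.5 and 25.4 CPM in sham 1 to 3, 13.0, 38.6 and 5.32 CPM in MIRI 1 to 3, and 44.4, 20.3 and 3.26 CPM in GXNI 1 to 3. MIRI 2 and GXNI 1 were above all sham hearts and the other 4 below them, so that the groups overlapped. Its log2 fold change against sham was -0.28 (SE 0.694, unadjusted p = 0.69, edgeR's quasi-likelihood test). Kcnd3, the Kv4.3 subunit, was at 12.4, 14.7 and 12.2 CPM in sham hearts, 13.1, 17.7 and 8.46 CPM in MIRI hearts, and 19.5, 14.2 and 12.5 CPM in GXNI hearts. Only MIRI 3 was below the sham hearts for Kcnd3, and its log2 fold change was 0.12 (SE 0.236, unadjusted p = 0.626).

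Kcnj2 was the other gene below every sham heart. It encodes Kir2.1, the main pore of the inward rectifier current that sets the resting potential of ventricular myocytes. Its level was 58.2, 50.2 and 63.3 CPM in sham 1 to 3, 14.5, 45.0 and 20.2 CPM in MIRI 1 to 3, and 30.5, 25.6 and 21.7 CPM in GXNI 1 to 3. MIRI 2 came nearest to the sham hearts, within the distance that separates sham 2 from sham 1. The log2 fold change was -1.13 (SE 0.289, unadjusted p = 0.00305, adjusted p = 0.0863, edgeR's quasi-likelihood test), with levels of 57.2 ± 6.63 CPM (SD, n = 3) and 26.3 ± 10.6 CPM (SD, n = 6). Without sham 1 it was -1.11 (unadjusted p = 0.011) and without sham 3 it was -1.04 (unadjusted p = 0.0146), so the call rests on these libraries. Of all genes tested, 8.44% were likewise lower in each of the 6 libraries than in each sham library. The paralog Kcnj12, which encodes Kir2.2, gave a log2 fold change of -0.76 (SE 0.261, unadjusted p = 0.0156) and was not called.

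Neither Kcnip2 nor Kcnj2 passed 0.05 after adjustment over all genes. By edgeR's quasi-likelihood test 0 of the 9 genes had an adjusted p under 0.05 and 2 had an unadjusted p under 0.05, in a fit where 0.0263% of genes were higher and 0.0329% lower by the adjusted rule. With DESeq2 the same 2 genes passed, Kcnip2 with an adjusted p of 7.77e-05 and Kcnj2 with 0.0108, in a fit where 2171 of 29338 genes had an adjusted p under 0.05.

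Kcnj11, Kir6.2, forms the pore of the ATP-sensitive potassium channel, which opens when the cell's energy supply falls. It was at 132, 141 and 139.5 CPM in sham hearts, 66.0, 155 and 53.1 CPM in MIRI hearts, and 108, 88.2 and 49.8 CPM in GXNI hearts. All hearts with ischemia and reperfusion other than MIRI 2 were below the sham hearts. Against sham its log2 fold change was -0.67 (SE 0.327, unadjusted p = 0.0695, edgeR's quasi-likelihood test). It was -0.91 without MIRI 2 and -0.80 without MIRI 2 and GXNI 3, and Kcnj11 was then called. That made 3 of 9 genes lower, where 4.76% of genes were called lower without MIRI 2 and 3.24% without both libraries.

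Kcnj3, Kir3.1, is a pore of the acetylcholine-activated channel and in mouse heart is best known from atria and nodes. It was at 43.9, 44.2 and 48.2 CPM in sham hearts, 11.7, 63.8 and 8.37 CPM in MIRI hearts, and 53.2, 22.0 and 5.99 CPM in GXNI hearts. The sham hearts were close together, whereas the hearts with ischemia and reperfusion spanned a 10.6-fold range, with MIRI 2 and GXNI 1 above all sham hearts. Against sham it gave a log2 fold change of -0.72 (SE 0.678, unadjusted p = 0.311, edgeR's quasi-likelihood test).

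Kcnh2 (ERG) and Kcnq1 (Kv7.1) form the rapid and slow delayed rectifier channels. Kcnh2 was at 127, 101 and 113 CPM in sham hearts, 31.6, 124 and 25.3 CPM in MIRI hearts, and 88.0, 53.2 and 20.5 CPM in GXNI hearts, so that MIRI 2 lay within the sham range and the other 5 below it. Kcnq1 was at 51.4, 39.9 and 46.6 CPM in sham hearts, 28.4, 56.2 and 27.2 CPM in MIRI hearts, and 52.8, 41.8 and 19.5 CPM in GXNI hearts, with 3 of the 6 below all sham hearts. Neither gene was called in the 6 libraries against sham. The log2 fold change was -0.99 (SE 0.514, unadjusted p = 0.083) for Kcnh2 and -0.29 (SE 0.31, unadjusted p = 0.374) for Kcnq1, by edgeR's quasi-likelihood test.

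Kcna5, Kv1.5, carries an ultrarapid sustained current in mouse heart. It was the member that varied least among the hearts with ischemia and reperfusion, at 37.8, 34.7 and 36.5 CPM in MIRI 1 to 3 and 40.0, 37.6 and 41.0 CPM in GXNI 1 to 3, a 1.18-fold range. The sham hearts were at 39.9, 35.7 and 17.8 CPM, and sham 3, with 333 counts against 743 and 720, stood apart. The log2 fold change was 0.29 (SE 0.215, unadjusted p = 0.214, edgeR's quasi-likelihood test), and 0.0057 without sham 3.

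**Figure D2:**
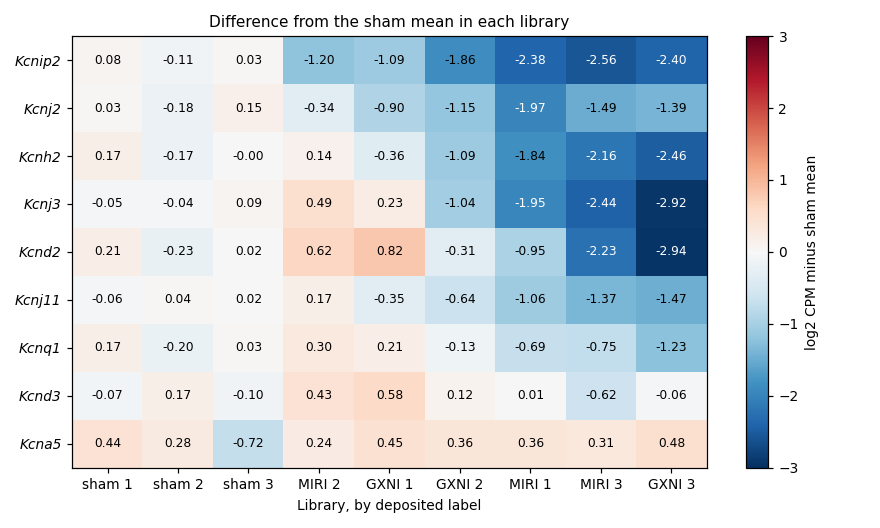
Each cell gives the log2 CPM of a gene (rows) in a library (columns, by deposited label) minus the mean of the 3 sham libraries, on a colour scale from -3 (blue) to 3 (red). The MIRI and GXNI libraries are drawn in an order that runs from MIRI 2 to GXNI 3; Kcnj3 goes from 0.49 to -2.92 along it and Kcna5 stays between 0.24 and 0.48.

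The hearts with ischemia and reperfusion fell in nearly the same order for most members. For Kcnj3, Kcnj11, Kcnq1 and Kcnh2 the order from low to high was GXNI 3, MIRI 3, MIRI 1, GXNI 2, GXNI 1 and MIRI 2, and Kcnd2 differed from it only by GXNI 1 being above MIRI 2. Kcnip2 and Kcnd3 kept MIRI 3, GXNI 3 and MIRI 1 as the 3 lowest, and Kcnj2 had MIRI 1, MIRI 3 and GXNI 3 there. Kcna5 had an order of its own, with GXNI 3 highest. The order of Kcnj3, Kcnj11, Kcnq1 and Kcnh2 was also that of the first principal component over 15207 genes. That component ran from 93.9 in GXNI 3 to -43.9 in MIRI 2, so the order is not particular to the channel genes. The range from the lowest to the highest of these 6 libraries was 13.5-fold for Kcnd2, 10.6-fold for Kcnj3 and 6.06-fold for Kcnh2. It was between 2.30-fold and 3.11-fold for Kcnj11, Kcnj2, Kcnq1, Kcnip2 and Kcnd3.

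Across the 9 libraries, log2 CPM of Kcnj11 and Kcnh2 had a Pearson r of 0.988, Kcnj3 and Kcnh2 of 0.982 and Kcnip2 and Kcnj2 of 0.943. Kcna5 had an r between -0.503 and 0.157 with the other 8 genes. These values describe 9 libraries of which the 3 sham libraries lie together, and all genes share the same libraries and scaling.

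Neutrophil and cardiomyocyte markers separated the same libraries as most of the channel genes did. The summed level of 11 neutrophil markers, all counted in every library, was 30.2 to 61.5 CPM in sham hearts, 28.5 in MIRI 2 and 50.6 in GXNI 1. It was 237 in GXNI 2 and 786, 736 and 768 CPM in MIRI 1, MIRI 3 and GXNI 3. The 12 cardiomyocyte markers, all detected, summed to between 58100 and 60200 CPM in sham hearts, 39400, 60700 and 43000 in MIRI 1 to 3, and 50600, 43600 and 41200 in GXNI 1 to 3. The part of the cell makeup in the channel values was not tested beyond the comparison that follows. The 7 atrial markers summed to 64.5 to 104 CPM in sham hearts, 272, 208 and 680 in MIRI 1 to 3, and 89.4, 112 and 746 in GXNI 1 to 3. Most of that sum was Nppa, which ventricular muscle also makes under stress, at 258, 165 and 666 CPM in MIRI 1 to 3 and 54.4, 97.5 and 728 CPM in GXNI 1 to 3. The atrial light chain Myl7 was highest in MIRI 2, at 1.78 CPM, and at 0 in MIRI 1, MIRI 3 and GXNI 3. Sln (1.37 CPM), Myl4 (3.51 CPM) and Dkk3 (14.9 CPM) of the atrial list were also highest in MIRI 2, the library in which Kcnj3 was highest. Bmp10 had 1 count, in MIRI 2. Myl7 and Sln had only 30 and 23 counts there. Stard10 of the same list was highest in GXNI 1, at 30.05 CPM against 21.9 CPM in MIRI 2, and Nppa was highest in GXNI 3. The part of these genes in the Kcnj3 values was not tested. Macrophage markers did not follow the order, with 424 CPM in MIRI 2 and 734 CPM in GXNI 1. Mesothelial markers summed to 72.9 CPM in GXNI 1 and to between 8.95 and 13.7 CPM in the other 5 libraries with ischemia and reperfusion. Isl1 of the conduction list was at 0 in all libraries.

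Set against the mean log2 CPM of the 12 cardiomyocyte markers, Kcnip2 and Kcnj2 were below every sham heart in all 6 others. The markers themselves did not change alike. Tcap had a mean of 2244 CPM in sham hearts and 695 CPM in the 6 others, and was below every sham heart in all of them. Actc1 had means of 4634 and 6717 CPM. A low value on this scale therefore does not set a gene apart from every cardiomyocyte transcript. The difference from sham relative to the marker mean was -1.48 on the log2 scale for Kcnip2, 0.359 times the sham value, and -0.77 for Kcnj2, 0.587 times. Kcnip2 and Kcnj2 each had a two-sided exact permutation p of 0.0238, the smallest that 6 against 3 libraries can give. It was 0.107 after Benjamini-Hochberg adjustment over the 9 genes. Kcnd3 was 0.51 higher (exact permutation p = 0.0476, adjusted 0.143) and Kcna5 0.81 higher (exact permutation p = 0.0714, adjusted 0.161) on this scale. The other 5 genes had differences between -0.86 and 0.06, with exact permutation p of at least 0.143. After adjustment 0 of 9 genes passed 0.05, and with so few libraries a pass would take several genes at the smallest p.

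**Figure D3:**
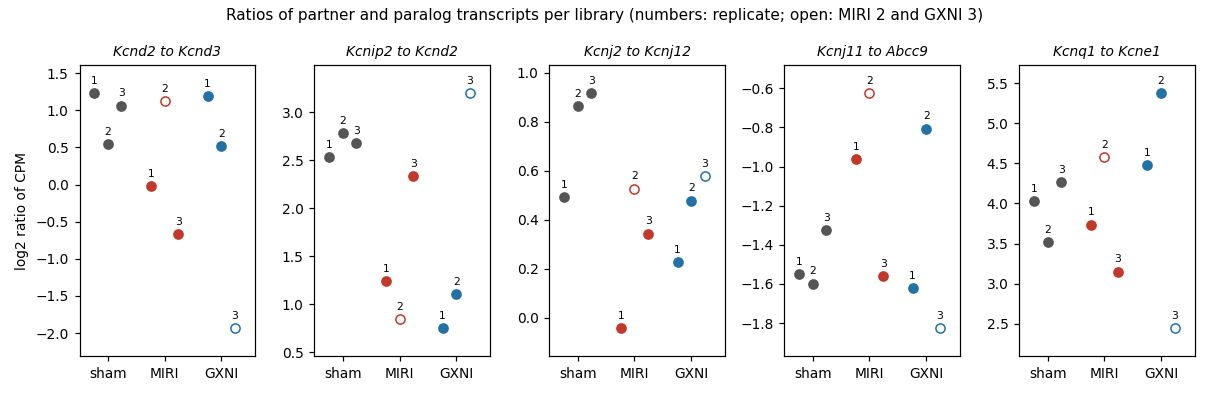
log2 ratio of the CPM of the first gene to that of the second (vertical axis, not from 0) in each heart, by deposited label, for 5 pairs. Numbers are replicates and open circles are the libraries labelled MIRI 2 and GXNI 3. The ratio of Kcnip2 to Kcnd2 lies between 2.53 and 2.78 in sham hearts and between 0.75 and 3.20 in the others.

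Ratios of partners or paralogs within a library were compared for 5 pairs. The log2 ratio of Kcnip2 to Kcnd2 was 2.53, 2.78 and 2.68 in sham 1 to 3, 1.24, 0.85 and 2.33 in MIRI 1 to 3, and 0.75, 1.11 and 3.20 in GXNI 1 to 3. Thus 5 of 6 libraries were below the sham hearts and GXNI 3 was above them (difference of means -1.08, exact permutation p = 0.167). The ratio of Kcnd2 to Kcnd3 was 1.23, 0.54 and 1.06 in sham hearts, and reached from -1.93 in GXNI 3 to 1.19 in GXNI 1 (difference -0.91, exact permutation p = 0.238). The ratio of Kcnj2 to Kcnj12 differed from sham by -0.41 (exact permutation p = 0.0714). Kcnj11 against Abcc9, the sulfonylurea receptor of the cardiac ATP-sensitive channel, gave 0.26, and Kcnq1 against its accessory subunit Kcne1 gave 0.02. After adjustment over the 5 pairs the lowest p was 0.357, and no pair passed 0.05. A single pair could not have passed, even at the smallest p that these libraries can give.

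For MIRI against sham by deposited label, only Kcnip2 was called, with a log2 fold change of -1.92 (SE 0.359, unadjusted p = 0.00108, adjusted p = 0.0662, edgeR's quasi-likelihood test). Thus 1 of 9 genes was lower and 0 higher, where 2.82% of 14644 genes were called lower and 6.15% higher. Kcnj2 had a log2 fold change of -1.11 (SE 0.395, unadjusted p = 0.0262), and its groups, like those of Kcnip2, did not overlap, as was so downward for 16.2% of genes. The other 7 genes lay between -0.92 (Kcnh2) and 0.23 (Kcna5).

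Without the libraries labelled MIRI 2 and GXNI 3, 7 of 9 genes were called lower in MIRI than in sham hearts, where 13.3% of all genes were. Kcnip2 was at -2.47 (SE 0.129), Kcnj3 at -2.18 (SE 0.166), Kcnh2 at -1.996 (SE 0.158) and Kcnj2 at -1.72 (SE 0.183) on the log2 scale. Kcnd2 followed at -1.47, Kcnj11 at -1.20 and Kcnq1 at -0.72, and the adjusted p of the 7 lay between 7.97e-05 and 0.0122 in edgeR's quasi-likelihood test. With the 2 libraries exchanged the same 7 genes were called lower, where 16.6% of all genes were, with log2 fold changes from -2.45 (Kcnip2) to -0.88 (Kcnq1). Kcnd3 and Kcna5 were not called under any of these groupings, at -0.21 (SE 0.186) and 0.30 (SE 0.255) with the exchange.

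**Figure D4:**
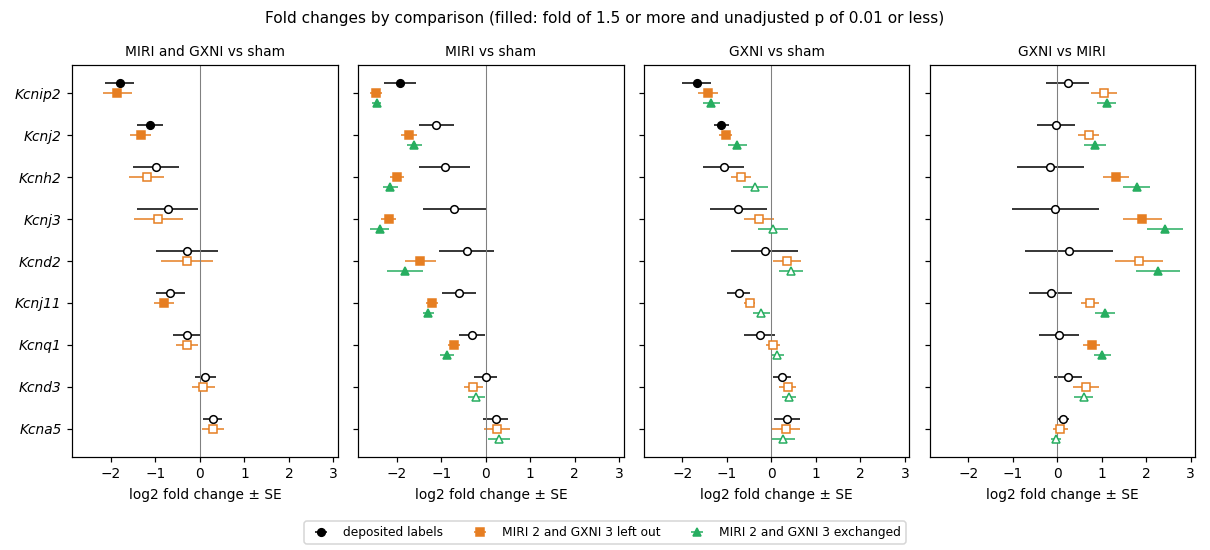
log2 fold change with its standard error (horizontal axis) for the 9 genes in 4 comparisons, by deposited label (black circles), without the libraries labelled MIRI 2 and GXNI 3 (orange squares) and with them exchanged (green triangles). Filled symbols passed a fold change of 1.5 and an unadjusted p of 0.01. Kcnip2 is filled against sham in every comparison, whereas in GXNI against MIRI the black circles lie between -0.16 and 0.27 and are all open.

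For GXNI against MIRI by deposited label, 0 of 9 genes were called, as was so for nearly all genes: 0% of 14762 genes were higher and 0.0203% lower. The log2 fold changes lay between -0.16 (Kcnh2, SE 0.748) and 0.27 (Kcnd2, SE 0.989), and 0 members had an unadjusted p under 0.05 with edgeR's quasi-likelihood test or with DESeq2. The standard errors of Kcnj3 and Kcnd2, 0.987 and 0.989, exceed what a fold change of 1.5 amounts to, so a change of that size could not have been seen in them. Without the libraries labelled MIRI 2 and GXNI 3, Kcnj3 (1.92, SE 0.445), Kcnh2 (1.33, SE 0.286) and Kcnq1 (0.78, SE 0.187) were called higher in GXNI, 3 of 9 where 1.52% of genes were. Their adjusted p was between 0.188 and 0.189 in edgeR's quasi-likelihood test.

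With the 2 libraries exchanged, 7 of 9 genes were called higher in GXNI than in MIRI hearts, where 8.56% of genes were. Kcnj3 had the largest log2 fold change of them at 2.42 (SE 0.408), then Kcnd2 at 2.26 (SE 0.499) and Kcnh2 at 1.79 (SE 0.305). Kcnip2 was at 1.11, Kcnj11 at 1.07, Kcnq1 at 1.02 and Kcnj2 at 0.85, and the adjusted p of the 7 lay between 0.0147 and 0.039 in edgeR's quasi-likelihood test. Kcnd3 was at 0.60 (SE 0.213, adjusted p = 0.0715) and Kcna5 at -0.03 (SE 0.121, adjusted p = 0.885). These are the 7 genes called lower in MIRI than in sham under the same exchange, and both comparisons share their MIRI libraries. Direction and number of calls for GXNI against MIRI thus depended on where these 2 libraries were placed.

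For GXNI against sham, Kcnip2 and Kcnj2 were called lower under each of the 3 groupings. By deposited label the log2 fold changes were -1.68 (SE 0.318, unadjusted p = 0.00122, adjusted p = 0.219) and -1.13 (SE 0.169, unadjusted p = 0.000301, adjusted p = 0.205) in edgeR's quasi-likelihood test, 2 of 9 genes where 1.54% were called lower and 2.67% higher. They were -1.43 and -1.02 without the libraries labelled MIRI 2 and GXNI 3, where 1.46% of genes were called lower, and -1.35 and -0.76 with both exchanged, where 1.56% were. With all 9 libraries in 1 fit Kcnj2 was not called in this comparison (-1.14, unadjusted p = 0.0134). Without GXNI 1, Kcnj11 (-0.98) and Kcnh2 (-1.61) were called lower as well, 4 of 9 genes where 7.08% were. Under the exchange, Kcnj3 and Kcnq1 were at 0.03 (SE 0.334) and 0.13 (SE 0.147) relative to sham, Kcnh2 at -0.36 (SE 0.273) and Kcnd2 at 0.44 (SE 0.274), and none of these was called.

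**Figure D5:**
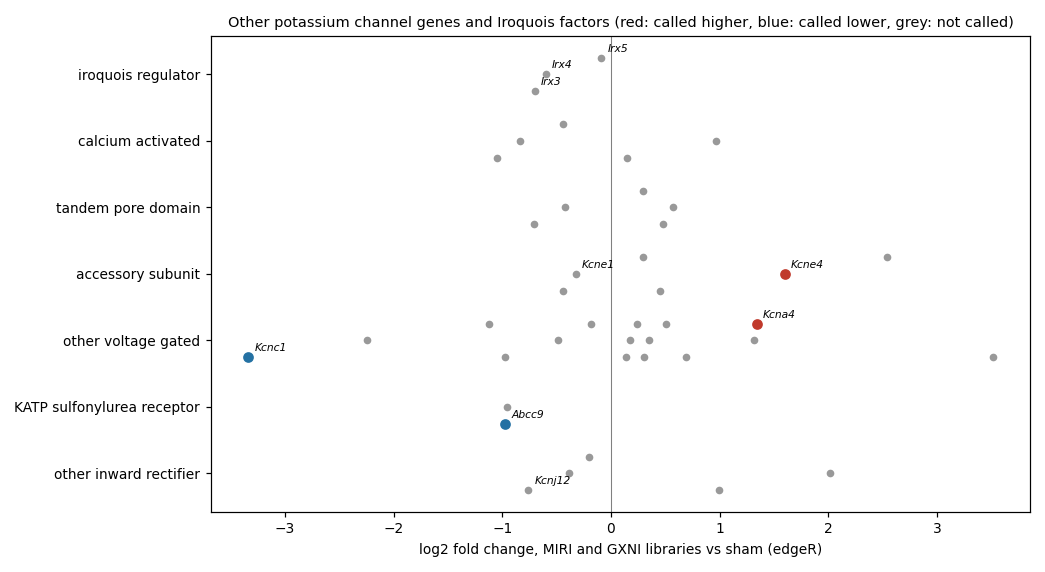
log2 fold change of the 6 MIRI and GXNI libraries against the 3 sham libraries (horizontal axis) for 42 other potassium channel genes and Iroquois factors that passed the filter on low counts, by family. Red points were called higher (Kcne4, Kcna4) and blue points lower (Kcnc1, Abcc9), and grey points were not called.

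Of 60 other genes of the potassium channel families, their accessory subunits and the Iroquois factors, 42 passed the filter on low counts in the comparison of all 6 libraries with sham. Among them 2 were called higher and 2 lower, where 5.52% and 2.85% of all genes were. The median log2 fold change was 0.0245, beside 0.00765 over all genes tested. Abcc9 encodes SUR2, the receptor subunit that joins Kcnj11. It was at 387, 426 and 349 CPM in sham hearts, 129, 239 and 156 CPM in MIRI hearts, and 332, 154 and 176 CPM in GXNI hearts, all below sham. Its log2 fold change was -0.97 (SE 0.269, unadjusted p = 0.00492, edgeR's quasi-likelihood test).

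Kcna4 (Kv1.4) forms the slow component of the transient outward current. It rose from 0.645, 1.34 and 0.907 CPM in sham hearts to 2.95, 2.56 and 2.92 CPM in MIRI hearts and 1.5, 1.28 and 3.55 CPM in GXNI hearts, with GXNI 2 inside the sham range. Its rise had a log2 fold change of 1.34 (SE 0.397, unadjusted p = 0.00712, edgeR's quasi-likelihood test), and 1.17 without the libraries labelled MIRI 2 and GXNI 3, where it was not called. Kcne4, an accessory subunit, was higher at 1.60 (SE 0.473, unadjusted p = 0.00709). Its level was 9.19, 5.10 and 5.17 CPM in sham hearts, 22.0, 8.32 and 32.4 CPM in MIRI hearts, and 13.9, 11 and 30.4 CPM in GXNI hearts, with MIRI 2 inside the sham range. Kcnc1 was counted 27, 22 and 22 times in sham hearts, 2, 1 and 2 times in MIRI hearts and 1, 8 and 0 times in GXNI hearts, and was called lower.

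In MIRI against sham by deposited label, 3 of 39 other genes were called higher and 3 lower, where 6.15% and 2.82% of all genes were. Kcna4 (1.54, SE 0.322), Kcnj15 (2.29, SE 0.614) and Kcng2 (0.66, SE 0.183) were higher, and Abcc9 (-1.15, SE 0.24), Kcnc1 and Irx3 (-0.77, SE 0.192) were lower. Kcnj15 had between 9 and 16 counts in sham hearts and 57, 19 and 135 in MIRI 1 to 3. Irx3 belongs to the Iroquois transcription factors. Irx5, the member of that family known to repress Kcnd2 across the ventricular wall, had a log2 fold change of -0.38 (SE 0.339, unadjusted p = 0.295) and Irx4 one of -0.65 (SE 0.434, unadjusted p = 0.178), and neither was called. With the libraries labelled MIRI 2 and GXNI 3 exchanged, 6 of 41 were called higher and 13 lower, where 19.2% and 16.6% of all genes were.

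In GXNI against MIRI 0 of 41 other genes were called by deposited label. With the exchange 12 of 41 were called higher and 4 lower, where 8.56% and 10.7% of all genes were. In GXNI against sham 0 of 39 were higher and 2 lower by deposited label, where 2.67% and 1.54% of all genes were. The 2 were Kcnc1 and Kcnk3, the latter the TASK-1 background channel, at -0.81 (SE 0.169). Kcnk3 was named after its value was seen, and with the exchange it was at -0.36 and not called.

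For each member the genes whose log2 CPM followed it most closely over the 9 libraries, 1 for Kcnq1 and 2 for the others, are given from 13480 genes with a mean of at least 1 CPM. Kcnh2 was followed by Acy3 and Trap1 (Pearson r 0.998 for both), Kcnj3 by Wdsub1 (0.996) and Trdn (0.995), and Kcnj11 by Cog6 (0.996) and Opa1 (0.994). Trdn encodes triadin of the calcium release complex, and Trap1 and Opa1 encode mitochondrial proteins. Kcnip2 was followed by Armc2 (0.994) and Kantr (0.992), Kcnd2 by Gm44421 (0.994) and Lrrc56 (0.986), and Kcnq1 by Thra (0.991), a thyroid hormone receptor. For Kcnj2 they were Idh2 (0.98), a mitochondrial enzyme, and Stk35 (0.979), and for Kcnd3 they were Rgs7 (0.985) and Slc16a4 (0.961). The closest genes to Kcna5 were Ddit4 (0.944), a stress-responsive gene, and Klf13 (0.914), which is less close than for any other member. Over 9 libraries and this many genes, high values of r are found for many genes.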

How the data were processed

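RNA of heart tissue from 3 sham, 3 MIRI and 3 GXNI mice was analysed from the deposited counts, which are whole numbers of reads per gene without normalization. The authors filtered the reads for adapters, unread bases and quality, then aligned them to mm10 with HISAT2 and counted with featureCounts of Subread, as the paper's methods and the submitters' processing notes give it. Versions, annotation release and strand setting are not given in the sources used here. The strand of a read and reads shared by overlapping genes can therefore affect a gene's count. GENCODE M21 gave a symbol for 54409 of the 54532 identifiers.

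Each comparison was fitted on its own libraries with edgeR 4.0.16 in R 4.3.3 (TMM, default filterByExpr, quasi-likelihood F test), over all genes. A call required a fold change of 1.5 and an unadjusted p of 0.01, the thresholds of the study, and adjusted p-values are Benjamini-Hochberg over all genes tested. SE is the size of the log2 fold change divided by the square root of F. CPM used TMM factors over the 9 libraries, and log2 CPM a prior count of 0.5. Ratios and levels relative to markers were compared by two-sided exact permutation over libraries (scipy 1.17.1). Alternatives were DESeq2 1.42.0, RLE scaling, fits with a replicate block or of all 9 libraries, no filter, an adjusted p of 0.05, each library left out, and the libraries labelled MIRI 2 and GXNI 3 left out or exchanged. Combinations of the last with an adjusted p or DESeq2 were added after seeing the data.

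The members, lists, ratios and alternatives were chosen with earlier results of these data known. Named genes were the members, partners in the ratios, Iroquois factors, up to 6 called genes of the wider list in each direction, and for each member the 2 genes closest in log2 CPM, of which 1 is not reported here. The edgeR fit was tested on simulated data in which 200 genes had a log2 change of 2. It recovered 197 in MIRI against sham (14726 genes run) and 189 in the 6 libraries against 3 (15065 genes run). All simulated libraries of a group had the same expected shares of counts, unlike the widely spread MIRI and GXNI libraries. The recovery therefore does not give the power in these data. No pair of libraries with the same label was a duplicate: chi-square per degree of freedom was at least 14.4. Pairs across labels were not checked in this way. Counts of a library cover counting error only, and p-values rest on 3 mice a group.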

Additional observations from a re-analysis of the deposited data

How the results depend on the processing

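The direction of Kcnip2 and Kcnj2 against sham was the same under every alternative run, in all 3 comparisons with sham. In the comparison of 6 libraries with sham, edgeR called 1274 of 15207 genes and 2 members, and DESeq2 called 2196 of 29338 genes. An adjusted p of 0.05 left 9 genes and 0 members, or 0 and 0 without the libraries labelled MIRI 2 and GXNI 3. Leaving out 1 library at a time gave 463 to 2298 genes and 1 to 3 members. The low end was without sham 2 for genes and without sham 1 or sham 3 for members, and the high end without GXNI 1 and MIRI 2. Of all genes, 1.62% and 1.45% were called lower without sham 1 and sham 3, 4.76% without MIRI 2 and 5.70% without GXNI 1. The cause of these differences was not tested. With 3 mice a group, a change of the size of the standard errors given could not be seen.

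In MIRI against sham (1313 of 14644 genes, 1 member), DESeq2 gave 2251 of 27898 genes and 2 members. No filter gave 2406 of 27901 and 2, 1 fit of all 9 libraries 800 of 15207 genes, and an adjusted p 2 genes and 0 members. Without the libraries labelled MIRI 2 and GXNI 3 the comparison gave 4592 of 15207 genes and 7 members (5137 and 7 by adjusted p). With them exchanged it gave 5310 of 14853 and 7 (5839 and 7 by adjusted p, 5577 of 28049 and 7 with DESeq2). Leaving out single libraries gave 514 to 4592 genes and 1 to 7 members. The high end was without MIRI 2, with 15207 genes tested, and the low end without sham 2, with 15113. Log2 fold changes that changed sign were those of Kcnd3 (0.08 without sham 2, 0.23 without MIRI 3; -0.279 to 0.226 over single libraries), Kcna5 (-0.061 without sham 3; to 0.438) and Kcnd2 (0.012 without MIRI 3; from -1.47).

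In GXNI against MIRI (3 of 14762 genes, 0 members), DESeq2 gave 11 of 28122 genes, no filter 10 of 28128, 1 fit of all 9 libraries 9 of 15207 and an adjusted p 0. Without the libraries labelled MIRI 2 and GXNI 3 the comparison gave 748 of 14984 genes and 3 members (0 genes by adjusted p). With them exchanged it gave 2839 of 14762 and 7 (3043 and 7 by adjusted p, 3403 of 28125 and 7 with DESeq2). Leaving out single libraries gave 1 to 12 genes and 0 members. By deposited label all members were within 0.27 of 0 and several changed sign. Over single libraries left out, log2 fold changes ran from -0.323 to 0.593 for Kcnj2, -0.997 to 1.44 for Kcnj3, -0.431 to 0.474 for Kcnj11, -0.684 to 1.32 for Kcnd2, -0.00077 to 0.522 for Kcnd3, -0.197 to 0.795 for Kcnip2, -0.279 to 0.464 for Kcnq1 and -0.712 to 0.937 for Kcnh2. Without the libraries labelled MIRI 2 and GXNI 3, Kcnj2 was at 0.71, Kcnj3 at 1.92, Kcnj11 at 0.73 and Kcnh2 at 1.33. With them exchanged these 4 were at 0.85, 2.42, 1.07 and 1.79, and Kcna5 was at -0.027.

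In GXNI against sham (618 of 14695 genes, 2 members), DESeq2 gave 1401 of 27956 genes and no filter 1425 of 27966. The fit of all 9 libraries called 1 member, where 0.934% of genes were lower and 1.97% higher. An adjusted p left 0 genes and 0 members. By adjusted p the comparison gave 13 of 14599 genes and 0 members with the 2 libraries exchanged, and 2 of 15007 and 0 without them. Leaving out single libraries gave 175 of 15075 genes (without sham 2) to 2665 of 14990 (without GXNI 1), and 2 to 4 members. Kcnd2 (0.36) and Kcnq1 (0.04) changed sign without GXNI 3 and, having the same libraries, without MIRI 2 and GXNI 3, with ranges of -1.09 to 0.356 and -0.573 to 0.0447 over single libraries. With the exchange Kcnj3 was at 0.028, Kcnd2 at 0.44 and Kcnq1 at 0.13.

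Among ratios and levels relative to cardiomyocyte markers, 0 passed after adjustment in any fit run. With a sham library left out, or without both libraries that were exchanged elsewhere, no pass was possible. The smallest p that the exact permutation can give is then above 0.05 before adjustment, so these fits cannot test the result. In the other fits a pass would take several genes or pairs at the smallest p. The log2 ratio of Kcnq1 to Kcne1 ran from -0.259 to 0.326 and the relative level of Kcnq1 from -0.0337 to 0.192 with single libraries left out.

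The same replicate numbers occur in each group, but the mice are different animals. Deviations of same-numbered MIRI and GXNI libraries had correlations of -0.443, 0.126 and 0.701. In groups of 3 spread along the first principal component, such values cannot show whether the numbers pair libraries. Fits with a replicate block called 1065 of 14644 genes and 1 member for MIRI against sham and 573 of 14695 and 2 for GXNI against sham. They called 3 of 14762 and 0 for GXNI against MIRI and 1501 of 15207 and 2 for the 6 libraries against sham. The block turned the sign of Kcnj2 (0.13), Kcnj3 (0.0026) and Kcnq1 (-0.0020) in GXNI against MIRI and changed no call of a member.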
